A study of Mus musculus with 12 samples.

Results

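A set of 10 genes of heme breakdown and iron handling were followed in RNA sequencing of newborn mouse heart cells. They are Hmox1, Hmox2 and Blvrb (heme breakdown), Fth1 and Ftl1 (ferritin), Trf, Tfrc and Slc11a2 (iron uptake), Slc40a1 (iron export) and Ireb2 (iron sensing). They were taken by gene symbol from the deposited table through its Ensembl identifiers, and all 10 were found among 52336 genes. All 10 also passed a filter on low values (a mean of at least 10 over all libraries), which left 14996 genes to test. The genes were chosen by their function with earlier results of these data known, and no single measured value is recorded as having set the choice. The tests below therefore describe these libraries and are not independent evidence about a set of genes.

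The study asked how an antioxidant given before an injury affects heart muscle cells of newborn mice. All groups were wild type mice, and each of the 4 groups had 3 libraries. NAC MI pups received N-acetylcysteine (NAC), a cysteine donor and antioxidant, from postnatal day 0 to day 1 at a dose described as high, and had an infarction (MI) on day 2, made by closing the left anterior descending coronary artery. Saline MI pups received saline and the same occlusion, NAC sham pups received NAC and a sham procedure, and saline sham pups received saline and a sham procedure. NAC was given in saline buffered with 25 mM HEPES and 140 mM NaCl, and cells were taken on day 3, 1 day after surgery. Hearts were pooled, the ventricles were digested with enzymes, and cardiomyocytes were enriched with a commercial neonatal kit. The series text names whole ventricles and the sample labels name the left ventricle. Nothing states that the replicates came from separate litters, so each p-value reflects only how far these libraries spread.

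Heme oxygenases, encoded by Hmox1 (inducible) and Hmox2 (constitutive), open the heme ring and release iron, carbon monoxide and biliverdin, and biliverdin reductases such as Blvrb make bilirubin. The freed iron is stored in ferritin, a shell of heavy (Fth1) and light (Ftl1) chains, or leaves the cell through ferroportin (Slc40a1). Iron enters on transferrin (Trf) bound by the transferrin receptor (Tfrc) and is moved out of the endosome by Slc11a2 (DMT1). When iron is scarce, the iron regulatory proteins (Ireb2 encodes IRP2) bind hairpins called iron-responsive elements, which slows degradation of Tfrc mRNA and blocks translation of ferritin and ferroportin mRNA.

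The hairpins themselves are shown because they set apart the members whose mRNA level and those whose translation is known to follow iron. The transcripts of GENCODE M21 (GRCm38) were searched on their own strand for a C, any 5 bases, the loop CAGTGN and 5 more bases, where the 5 before and the 5 after the loop had to pair. Capitals mark the loop. Tfrc-201 held 4 matches after its coding part, on the + strand of chromosome 16. They lay at chr16:32631219-32631247, chr16:32631598-32631626, chr16:32631663-32631691 and chr16:32631710-32631738, and their loops began 895, 1274, 1339 and 1386 bases after the stop codon.
Tfrc site 1: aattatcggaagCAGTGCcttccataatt
Tfrc site 2: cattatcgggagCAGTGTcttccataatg
Tfrc site 3: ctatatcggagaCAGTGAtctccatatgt
Tfrc site 4: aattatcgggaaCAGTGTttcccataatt
Fth1 (chr19:9982732-9982760, + strand), Ftl1 (chr7:45459779-45459807, - strand) and Slc40a1 (chr1:45925465-45925493, - strand) each held 1 match before the coding part, with loops that began at transcript bases 99, 90 and 102.
Fth1: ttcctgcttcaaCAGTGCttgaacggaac
Ftl1: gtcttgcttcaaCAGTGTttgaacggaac
Slc40a1: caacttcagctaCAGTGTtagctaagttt
Slc11a2 matched only when 1 base of the stem could be skipped, a second pattern tried after the first. That match lay at chr15:100395153-100395181 on the - strand, with its loop 44 bases after the stop codon.
Slc11a2: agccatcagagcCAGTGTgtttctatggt

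Thus 5 of the 10 members held a match. The strict pattern was found before the coding part of 27 of 20520 protein-coding genes (0.132%) and after that of 127 of 20867 (0.609%). Among genes with a 3′ end about as long as that of Tfrc, 37 of 2788 held it (1.33%). With 1 base skipped, the shares were 0.341% at the 5′ end, 1.70% at the 3′ end and 3.03% among genes with a 3′ end about as long as that of Slc11a2. A match is a description of the letters and not a measured binding site.

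**Figure D1:**
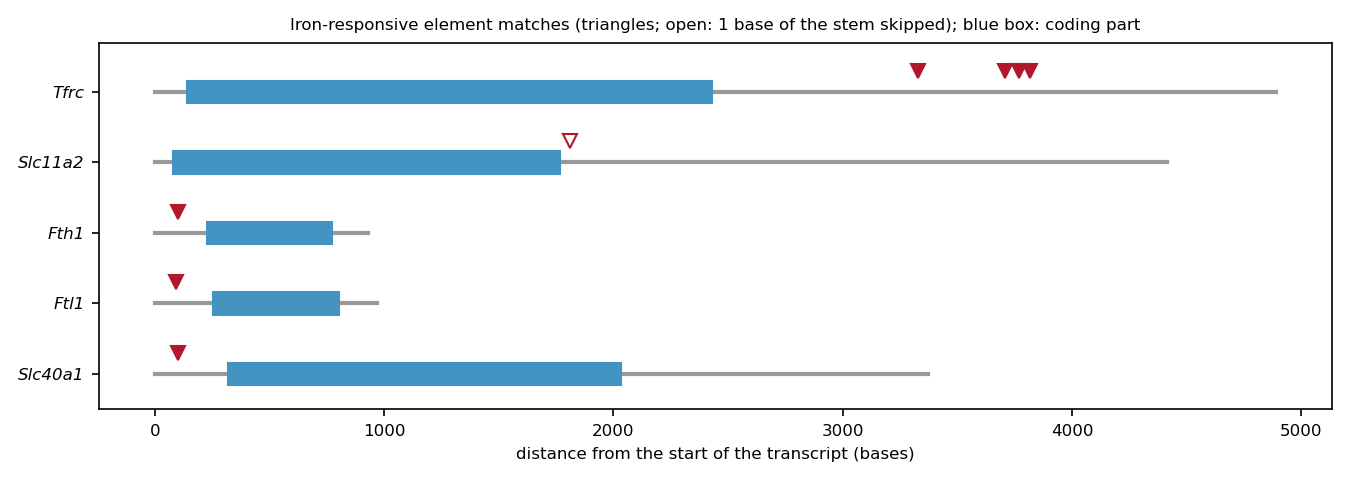
Positions of matches to the iron-responsive element in 1 transcript of each of 5 members, with distance from the transcript start in bases on the x axis. Grey lines are transcripts, blue boxes coding parts, filled triangles matches with 5 paired bases and the open triangle the match with 1 base skipped; the 4 matches of Tfrc and the 1 of Slc11a2 follow the coding part, and those of Fth1, Ftl1 and Slc40a1 precede it.

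The libraries held 14353842 to 25118341 reads. All 12 cardiomyocyte markers examined had reads in every library, as the label asks, with summed levels of 236967 to 664268. Markers of other cells were present too, and no marker list was at 0 in any library. NAC sham 2 had the lowest cardiomyocyte sum and the highest macrophage sum (22353, against 1939 and 1539 in the other NAC sham libraries). NAC MI 2 had a macrophage sum of 1276, against 12801 and 10883 in the other NAC MI libraries. The red cell sum was 266492 to 522253 in NAC MI, 877760 to 1383720 in saline MI, 189558 to 413631 in NAC sham and 547761 to 1398530 in saline sham, so every NAC library lay below every saline library. In such bulk libraries, fewer cells of a type and less RNA per cell cannot be told apart. Sample titles carry prefixes of unstated meaning. R230 marks NAC MI 3 together with saline MI 1 and 2, R235 marks NAC MI 1 and 2 together with saline MI 3, R207 marks NAC sham 2 together with saline sham 1 and 2, R219 marks saline sham 3, and NAC sham 1 and 3 have none. Because no prefix spans the 2 surgeries, effects of prefix and surgery cannot be told apart. After sham, only NAC sham 2 shares a prefix with saline libraries, so NAC and prefix are largely mixed there too.

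All values below are normalized read counts, that is reads divided by the size factor of the library, unless a log2 scale is named. Per kilobase of exon, Fth1 was the most abundant member, at a mean of 4941 over the 12 libraries, followed by Ftl1 at 1115 and Hmox1 at 418. Tfrc (249), Hmox2 (238), Blvrb (216), Trf (194) and Ireb2 (149) came next on this per-length scale. Slc11a2 (61.3) and Slc40a1 (21.2) were the lowest, and the smallest number of reads behind any member in any library was 82, for Slc40a1. The middle of this order is set by averages over libraries whose spread for single genes was larger than the gaps between neighbours.

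Between surgeries, 1 member was called: Trf was higher after MI, both in saline and in NAC pups. A member without a call may still have changed. With limma on log2(value + 1) and Benjamini-Hochberg adjustment over all genes tested, 1 of 10 members was called higher after MI in saline pups at an adjusted p under 0.05, against 0.854% of all genes. In NAC pups 1 of 10 was called higher, against 0.127% of all genes, and averaged over both treatments 1 was higher and 0 were lower, against 2.13% and 0.613%. A positive log2 fold change was found in 8 members in saline pups and 7 in NAC pups, against 49.1% and 49.8% of all genes. The median log2 fold changes of the members were 0.60 and 0.17, and those of all genes were -0.0075 and -0.0018.

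The number of members called after MI depended on how libraries were weighted. With library quality weights in limma, 7 members were called in saline pups (19.4% of all genes), 2 in NAC pups (5.37%) and 7 in the average (27.9%). Without NAC sham 2 and NAC MI 2, 2 were called in saline pups (4.05%), 2 in NAC pups (2.54%) and 3 in the average (5.32%). Hmox1 was among them each time, and both libraries departed from their groups in Hmox1. With only the libraries of a comparison in the fit, 2 were called in saline pups (Hmox1 and Trf, against 3.38% of all genes) and 0 in NAC pups (0.00667%).

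Between treatments, no member was called. With limma, 0 of 10 members and 0.0% of all genes were called for NAC against saline after MI, after sham and averaged over both surgeries. At an unadjusted p under 0.05, 2 members passed after MI (9.22% of all genes), 2 after sham (5.89%) and 3 in the average (15.5%). The edgeR quasi-likelihood test on the recovered reads also called 0 members in the 3 comparisons. DESeq2 on those reads called 0 after MI, 1 after sham (Tfrc) and 2 in the average (Tfrc and Blvrb), where it called 0.0734%, 0.353% and 2.91% of all genes. With quality weights, limma called 2 after MI (4.57%), 1 after sham (2.81%) and 3 in the average (13.5%), and without NAC sham 2 and NAC MI 2 it called 0 after MI (0.0%), 1 after sham (1.85%) and 1 in the average (1.11%). The interaction, which asks whether the NAC difference was another after MI than after sham, called 0 members with limma (smallest adjusted p = 0.9999), edgeR and DESeq2, where these called 0.0%, 0.0% and 0.00667% of all genes. None passed an unadjusted 0.05 for the interaction, against 2.03% of all genes.

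**Figure D2:**
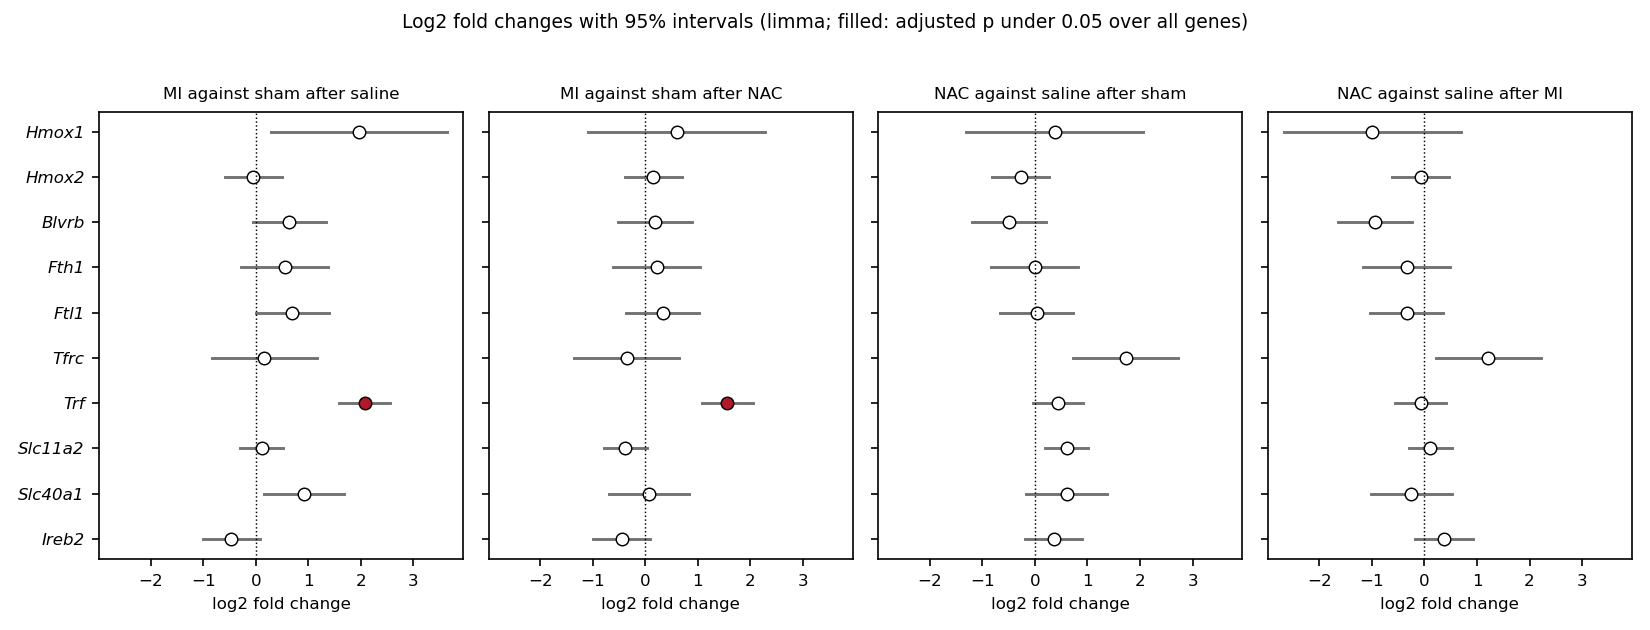
Log2 fold changes of the 10 members (x axis) in 4 comparisons, with 95% confidence intervals from limma. Filled points passed an adjusted p of 0.05; only Trf is filled, at 2.07 after MI in saline pups and 1.56 after MI in NAC pups.

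Heme breakdown differed most from library to library in its inducible gene. Hmox1 (ENSMUSG00000005413, chr8:75093621-75100589) had 1175, 210 and 806 normalized counts in NAC MI, 1187, 983 and 1338 in saline MI, 234, 1798 and 136 in NAC sham, and 294, 237 and 378 in saline sham. All saline MI libraries lay above all saline sham libraries, while the NAC groups overlapped with each other and with both saline groups. The highest value of all was in a sham library, NAC sham 2, and one of the lowest in an MI library, NAC MI 2.

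After MI, Hmox1 averaged 1169 ± 178 in saline pups, against 303 ± 71.1 after sham (SD, n = 3 each). The log2 fold change was 1.96 with an SE of 0.78, which limma did not call (adjusted p = 0.356). In NAC pups the means were 730 ± 487 after MI and 723 ± 933 after sham (log2 fold change 0.60, adjusted p = 0.790). Leaving out NAC sham 2 and NAC MI 2 changed the calls. The limma adjusted p was then 3.8e-04 in saline pups and 0.00103 in NAC pups, where the log2 fold change of Hmox1 was then 2.44. Both libraries departed from their groups in Hmox1 itself, so leaving them out is no independent test of Hmox1. Neither is a saline library, so the smaller p in saline pups came through the spread shared by all groups. In a fit of the saline libraries alone, limma also called Hmox1 in saline pups, where 3.38% of all genes were called. With library quality weights it called Hmox1 in saline pups (19.4% of all genes) and in NAC pups (5.37%). In Hmox1 and the sum of macrophage markers these 2 libraries lay with the other surgery. In Trf they lay with the surgery of their labels (791 in NAC MI 2 and 322 in NAC sham 2). They did so too in Steap1 (55.6 and 2.63), a gene of the iron uptake list described below. Single macrophage markers were split in NAC sham 2. Lyz2 was 9826, against 3265 to 4672 in saline MI, and Ccr2 was 7.88, against 168 to 393. Trf, Steap1, Lyz2 and Ccr2 were picked for this description after their values were seen, so they are no test of the labels. Whether the labels are right was not tested. For NAC against saline after sham, the log2 difference of Hmox1 was 0.37 with NAC sham 2 and -0.73 without it.

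Hmox1 stood beside the summed macrophage markers in every library, though not beside each single marker. The 16 macrophage and monocyte markers, of which 15 had reads in every library, summed to 9777 to 22353 in the 6 libraries with 806 to 1798 counts of Hmox1. In the other 6 libraries that sum was 970 to 1939 and Hmox1 was 136 to 378. By group, the sum was 1276 to 12801 in NAC MI, 9777 to 14625 in saline MI, 1539 to 22353 in NAC sham and 970 to 1608 in saline sham. The genes whose log2 levels followed Hmox1 most closely over the 12 libraries, among 11551 genes with a mean of at least 50, were Unc93b1 (Pearson r = 0.975), Igsf6 (0.964) and Clec4e (0.963), 3 genes known from myeloid cells. The part of macrophage RNA in the level of Hmox1 was not tested.

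**Figure D3:**
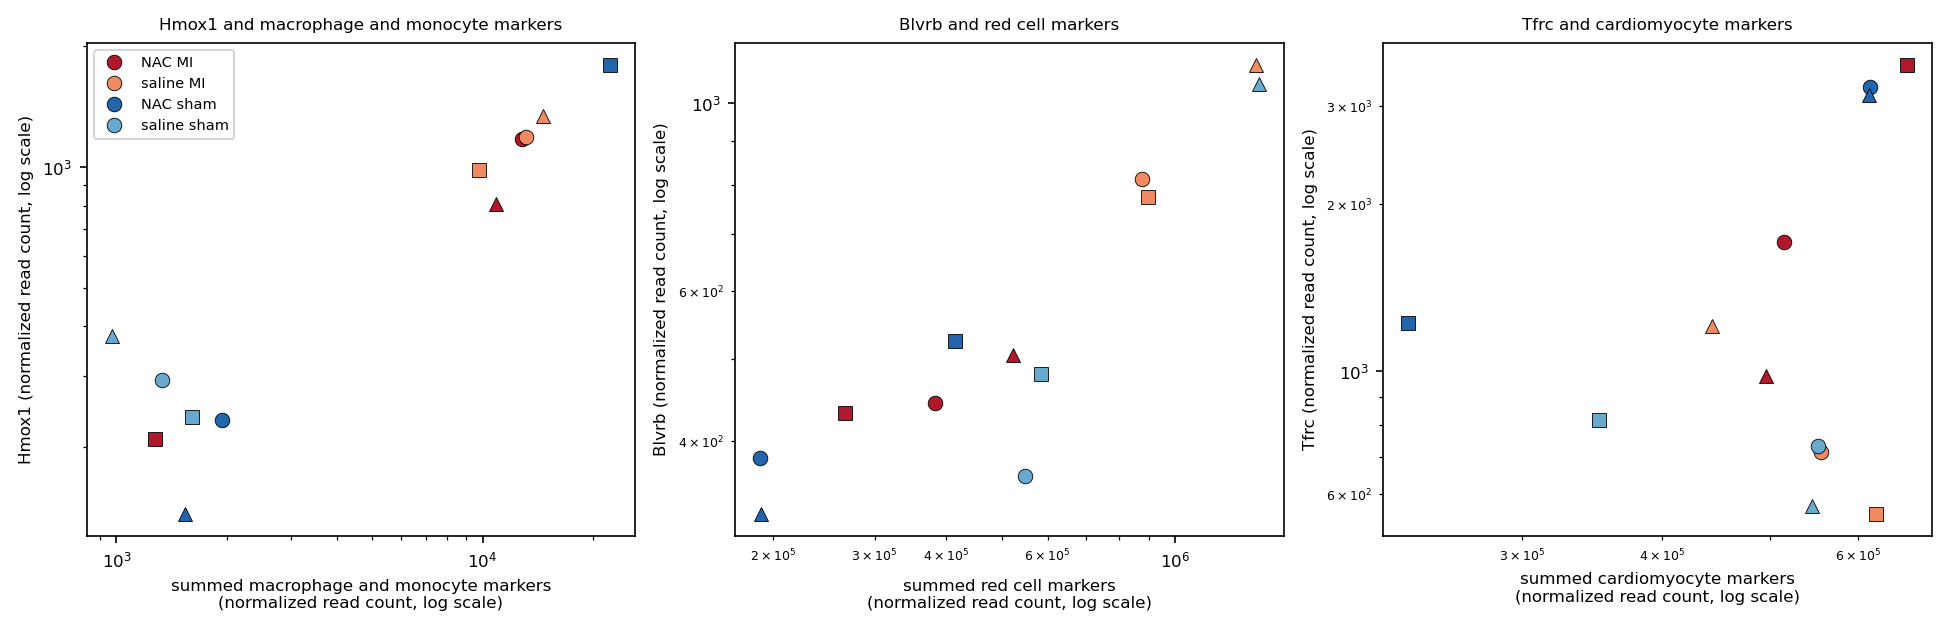
Normalized read counts of Hmox1, Blvrb and Tfrc (y axes, log scale) against the summed normalized counts of macrophage, red cell and cardiomyocyte markers (x axes, log scale) in each of 12 libraries; colours are groups, and circle, square and triangle are replicates 1, 2 and 3. Hmox1 falls into 6 libraries at 806 to 1798 with macrophage sums from 9777 up and 6 at 136 to 378 with sums up to 1939, Blvrb is highest in the 2 libraries with the most red cell RNA, and Tfrc is 3565 in the library with the highest cardiomyocyte sum and 554 in the next.

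Hmox2 (ENSMUSG00000004070, chr16:4726361-4766742), the constitutive oxygenase, showed no such split. It averaged 520 ± 102 in NAC MI, 542 ± 46.6 in saline MI, 464 ± 43.5 in NAC sham and 585 ± 223 in saline sham. The groups overlapped in every comparison, and its log2 fold changes in the 4 comparisons of 2 groups lay between -0.27 and 0.15. The ratio of Hmox1 to Hmox2 reads was 0.291 to 4.29 over the 12 libraries, above 1 in the same 6 libraries that were high for Hmox1.

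Blvrb (ENSMUSG00000040466, chr7:27447978-27466144) had 444, 432 and 504 counts in NAC MI, 812, 774 and 1107 in saline MI, 382, 524 and 329 in NAC sham, and 364, 479 and 1052 in saline sham. All NAC MI libraries lay below all saline MI libraries, while the sham groups overlapped and saline sham 3 alone lay above every NAC sham library. After MI the log2 difference of NAC against saline was -0.95 (95% interval -1.65 to -0.25), which limma did not call (adjusted p = 0.529, unadjusted p = 0.0120).

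Averaged over both surgeries, the log2 difference of Blvrb was -0.72 (adjusted p = 0.219 with limma). With library quality weights, limma called Blvrb after MI and in the average, where 4.57% and 13.5% of all genes were called. Within title prefixes, NAC MI lay below saline MI by 0.65 on the log2 scale in R230 (504 in 1 NAC library, a mean of 793 in 2 saline libraries) and by 1.34 in R235 (a mean of 438 in 2 NAC libraries, 1107 in 1 saline library). In R207 the 1 NAC sham library had 524, against a mean of 422 in 2 saline sham libraries. The 2 highest values of Blvrb, in saline MI 3 and saline sham 3, came from the libraries with the highest red cell sums, 1383720 and 1398530. Blvrb is a major protein of red cells, and the part of red cell RNA in its level was not tested.

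**Figure D4:**
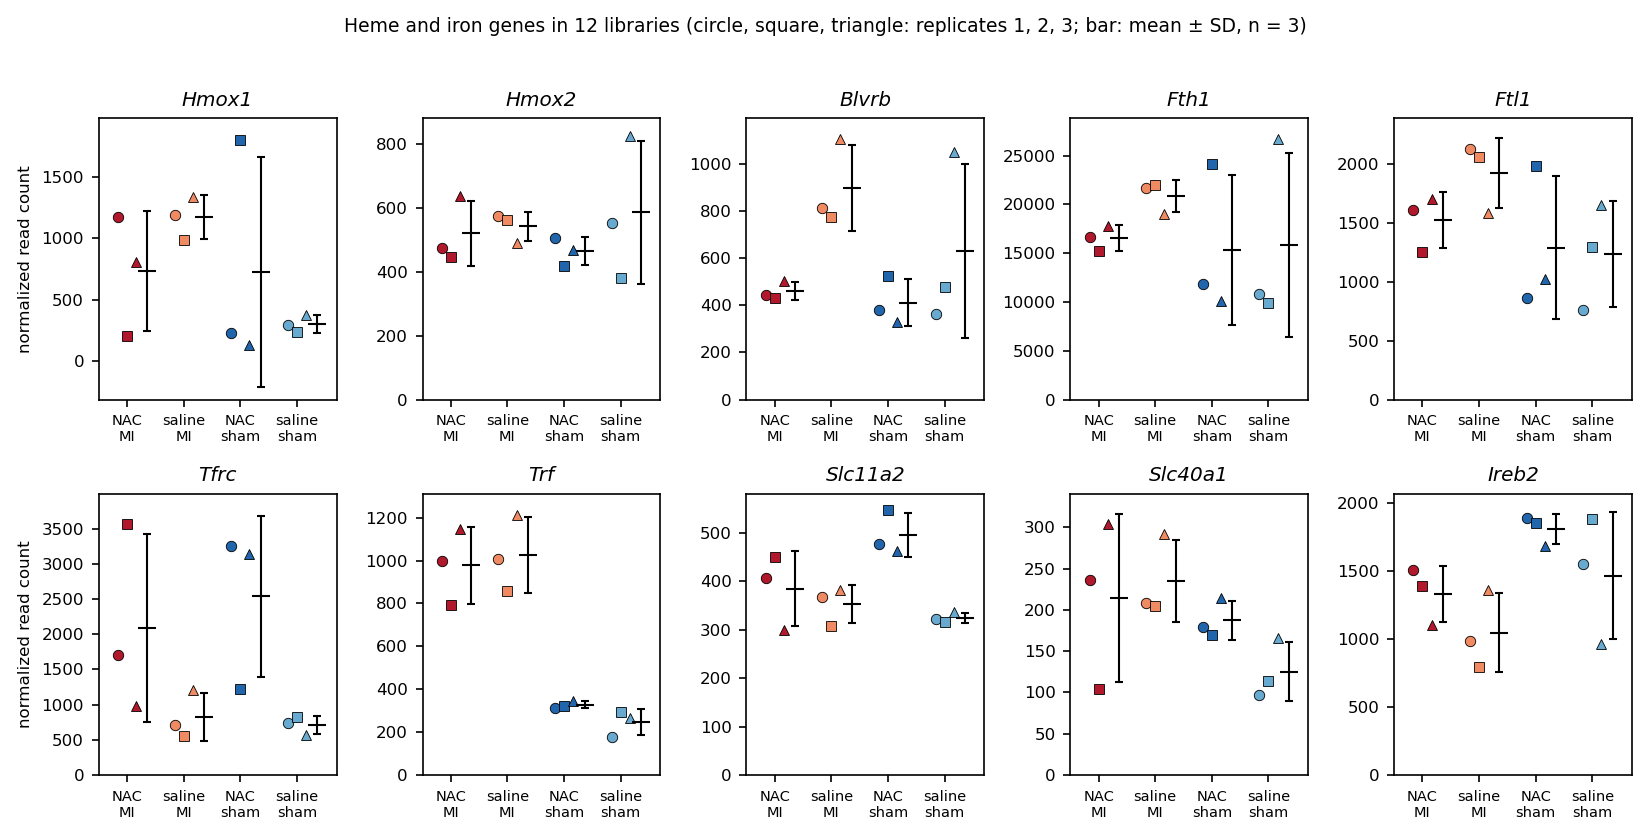
Normalized read counts (y axes, linear) of the 10 members in the 12 libraries, by group; circle, square and triangle are replicates 1, 2 and 3, and bars show mean ± SD (n = 3). Trf is higher in all 6 MI libraries (791 to 1210) than in all 6 sham libraries (178 to 345), whereas in Hmox1, Fth1 and Tfrc single libraries depart from their groups.

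Ferritin was the most abundant product of the set and varied mostly within the sham groups. Fth1 (ENSMUSG00000024661, chr19:9980598-9985098) had 16616, 15224 and 17821 counts in NAC MI, 21625, 21941 and 19013 in saline MI, 11792, 24124 and 10062 in NAC sham, and 10806, 9944 and 26711 in saline sham. NAC MI lay below saline MI in all libraries, while each sham group held 1 library above every MI library. The log2 difference of NAC against saline after MI was -0.33, and limma gave an adjusted p of 0.772.

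Ftl1 (ENSMUSG00000050708, chr7:45457944-45459884) had 1608, 1257 and 1705 counts in NAC MI, 2127, 2063 and 1584 in saline MI, 858, 1984 and 1024 in NAC sham, and 761, 1297 and 1653 in saline sham. The groups overlapped in all comparisons. For MI against sham in saline pups the log2 fold change of Ftl1 was 0.70 (unadjusted p = 0.0494, adjusted p = 0.437 with limma), and that of Fth1 was 0.55 (adjusted p = 0.631).

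Fth1 and Ftl1 moved together over the 12 libraries (Pearson r = 0.84 on the log2 scale, as a description). Hmox1 and Ftl1 did so too (r = 0.78), in libraries that share the same macrophage differences. Fth1 had 7.67 to 16.2 reads for each read of Ftl1, a ratio not corrected for length. Of 14 other annotated Ftl and Fth copies, 5 had any reads. The Ftl copies reached at most 2.59% of the reads of Ftl1 in a library and the Fth copies at most 0.0268% of those of Fth1, so reads listed at the copies were few, while how shared reads were assigned is not given in the sources used here.

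Trf (ENSMUSG00000032554, chr9:103204001-103230444), which encodes transferrin, the iron carrier of blood made mainly by the liver, had 997, 791 and 1145 counts in NAC MI, 1010, 856 and 1210 in saline MI, 313, 322 and 345 in NAC sham, and 178, 295 and 268 in saline sham. Every MI library was above every sham library, and the 2 treatments overlapped after MI. In saline pups Trf averaged 1025 ± 177 after MI and 247 ± 61.3 after sham (log2 fold change 2.07, SE 0.22, adjusted p = 0.00153 with limma). In NAC pups it averaged 978 ± 178 after MI and 327 ± 16.1 after sham (log2 fold change 1.56, SE 0.22, adjusted p = 0.0122 with limma).

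In saline pups the call of Trf was kept without any 1 of the 12 libraries, with a limma adjusted p of at most 0.0171. In NAC pups it was lost without NAC sham 1 (adjusted p = 0.0776), NAC sham 3 (0.0527) or NAC MI 3 (0.0501), and in a fit of the NAC libraries alone (0.127), with log2 fold changes of up to 1.60. The NAC sham libraries were above the saline sham libraries in Trf, by 0.44 on the log2 scale, without a call (adjusted p = 0.770). The difference between the MI responses in NAC and saline pups was -0.51 on the log2 scale, with a 95% interval from -1.19 to 0.17.

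The MI libraries also held more RNA of neutrophil markers. The 10 neutrophil markers, 7 of them with reads in every library, summed to 1009 to 5906 in NAC MI, 5110 to 5974 in saline MI, 419 to 925 in NAC sham and 115 to 726 in saline sham. The 8 fibroblast markers had higher mean values after MI in 8 of 8 genes in both treatments, with none called. They summed to 124553 to 202570 in NAC MI, 153041 to 221050 in saline MI, 86692 to 134653 in NAC sham and 88163 to 122361 in saline sham. The 8 endothelial markers summed to 20304 to 47324 in NAC MI, 37543 to 47185 in saline MI, 36538 to 79075 in NAC sham and 63103 to 69640 in saline sham. NAC MI 2 had 791 counts of Trf with a neutrophil sum of 1009, a macrophage sum of 1276 and a fibroblast sum of 197260. The genes most like Trf over the 12 libraries were Emb (r = 0.980), Chil1 (0.978) and Tpd52 (0.977). The part of any cell type in the rise of Trf was not tested.

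Tfrc had the largest NAC difference of the 10 members, though it was not called. Tfrc (ENSMUSG00000022797, chr16:32608920-32632794) had 1709, 3565 and 983 counts in NAC MI, 715, 554 and 1207 in saline MI, 3255, 1222 and 3146 in NAC sham, and 733, 819 and 571 in saline sham. All NAC sham libraries lay above all saline sham libraries, while after MI saline MI 3 lay above NAC MI 3. The 3 highest libraries were NAC MI 2 and NAC sham 1 and 3, at 3146 or more, and no saline library was above 1207.

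After sham, Tfrc averaged 2541 ± 1144 with NAC and 708 ± 126 with saline (log2 difference 1.73, SE 0.46, unadjusted p = 0.00243, adjusted p = 0.770 with limma). After MI it averaged 2085 ± 1332 with NAC and 825 ± 340 with saline (log2 difference 1.21, 95% interval 0.22 to 2.21, adjusted p = 0.529 with limma). Averaged over both surgeries the log2 difference was 1.47 (95% interval 0.77 to 2.18, unadjusted p = 5.8e-04, adjusted p = 0.172 with limma). For MI against sham the log2 fold changes of Tfrc were 0.16 in saline pups and -0.35 in NAC pups.

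The call of Tfrc turned on the method and on 1 library. Without NAC sham 2 the limma adjusted p was 0.0458 after sham, where 0.533% of all genes were called, and 0.0163 in the average, where 1.67% were. Among the NAC sham libraries, only NAC sham 2 shares a title prefix with saline sham libraries. Without it, effects of NAC and prefix cannot be told apart after sham. NAC sham 1 and 3, the higher ones in Tfrc (3255 and 3146), carry no prefix. With DESeq2 the adjusted p of Tfrc was 0.0248 after sham, 0.243 after MI and 4.9e-04 in the average. With edgeR it was 0.541, 0.565 and 0.128. With library quality weights, limma called Tfrc after sham, after MI and in the average, where 2.81%, 4.57% and 13.5% of all genes were called. Within title prefixes Tfrc was higher with NAC each time, by 0.64 on the log2 scale in R230 (983 in 1 NAC MI library, a mean of 634 in 2 saline MI libraries), 1.03 in R235 (a mean of 2637 in 2 NAC MI libraries, 1207 in 1 saline MI library) and 0.66 in R207 (1222 in 1 NAC sham library, a mean of 776 in 2 saline sham libraries).

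The 3 libraries with the most Tfrc had cardiomyocyte sums of 613643 to 664268, and saline MI 2, with a sum of 623575, had the least Tfrc. Among the markers in that sum, Ttn, which encodes the sarcomere protein titin, and Ryr2, the calcium release channel gene, were picked after their values were seen. Both were highest in the 3 libraries with the most Tfrc, at 32859 to 44751 and 11568 to 14176 counts, against 5453 and 3217 in saline MI 2. Ttn averaged 25186 ± 13570 in NAC MI, 6246 ± 1919 in saline MI, 30773 ± 15130 in NAC sham and 10822 ± 6816 in saline sham (SD, n = 3 each), so its mean, like that of Tfrc, was higher with NAC after each surgery. The list as a whole was split, with higher means with NAC in 6 of its 12 markers after sham and 7 after MI. After sham, those higher with NAC were Ttn, Ryr2, Myh7, Myh6, Actn2 and Pln, with 2759 (Pln) to 116825 (Ttn) bases of exon. The others had 1618 to 2063 bases, apart from Tnnt2 with 7752. The part of transcript length in the NAC differences, that of Tfrc included, was not tested. Tnnt2 and Myl2 had lower means with NAC after each surgery. NAC sham 2, with the least cardiomyocyte RNA, had the least Tfrc of the NAC sham libraries. Tfrc is also abundant in red cell precursors, and the red cell sums of the NAC and saline libraries are given above. The part of any cell type in the NAC difference of Tfrc was not tested. The genes most like Tfrc were Asph (r = 0.992), Vldlr (0.987) and Pcdh7 (0.981). Relative to the ferritin heavy chain, Tfrc reads were 10.3%, 23.4% and 5.51% of Fth1 reads in NAC MI, 3.30%, 2.53% and 6.35% in saline MI, 27.6%, 5.06% and 31.3% in NAC sham, and 6.78%, 8.23% and 2.14% in saline sham. The NAC and saline groups overlapped in this ratio after each surgery.

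Slc11a2 (ENSMUSG00000023030, chr15:100387898-100425072), the endosomal iron transporter with a 3′ hairpin match, had 406, 450 and 299 counts in NAC MI, 368, 308 and 382 in saline MI, 477, 547 and 463 in NAC sham, and 322, 317 and 337 in saline sham. NAC sham lay above every other group, library by library, and the MI groups overlapped. The log2 difference of NAC against saline was 0.60 after sham (unadjusted p = 0.00753, adjusted p = 0.770 with limma) and 0.11 after MI (adjusted p = 0.849). Within R207, the 1 NAC sham library had 547, against a mean of 319 in 2 saline sham libraries. Tfrc and Slc11a2, the members with 3′ matches, had r = 0.74 over the 12 libraries on the log2 scale.

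Slc40a1 (ENSMUSG00000025993, chr1:45908068-45926523), the exporter ferroportin, had 236, 104 and 304 counts in NAC MI, 209, 204 and 292 in saline MI, 179, 169 and 214 in NAC sham, and 96.4, 114 and 165 in saline sham. Saline MI and NAC sham each lay above saline sham, and NAC MI overlapped with every group. The log2 fold change of MI against sham in saline pups was 0.92 (adjusted p = 0.341 with limma), and that of NAC against saline after sham was 0.61 (adjusted p = 0.770).

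Ireb2 (ENSMUSG00000032293, chr9:54863789-54912530), the gene of IRP2, had 1507, 1393 and 1108 counts in NAC MI, 990, 795 and 1362 in saline MI, 1892, 1857 and 1689 in NAC sham, and 1552, 1887 and 966 in saline sham. All NAC MI libraries lay below all NAC sham libraries, and the saline groups overlapped. Averaged over both treatments the log2 fold change of MI against sham was -0.46 (unadjusted p = 0.0239, adjusted p = 0.182 with limma). IRP2 is controlled largely through protein degradation, which these RNA data do not measure. The genes most like Ireb2 were Appbp2 (r = 0.984), Pbrm1 (0.980) and Kdm5a (0.979).

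Counted by libraries that did not overlap, 3 members were higher and 0 lower after MI in saline pups, namely Hmox1, Trf and Slc40a1, where 10.4% of all genes were higher and 8.15% lower. In NAC pups 1 was higher (Trf) and 2 were lower (Slc11a2 and Ireb2), where 9.08% of all genes were higher and 9.96% lower. After MI, NAC libraries lay below saline libraries without overlap in 2 members (Blvrb and Fth1), against 11.5% of all genes, and above in 0, against 8.84%. After sham they lay above in 4 members (Tfrc, Trf, Slc40a1 and Slc11a2), against 5.35% of all genes, and below in 0, against 4.5%. Each group enters 1 MI and 1 NAC comparison, so these counts are not independent of each other.

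Around the 10 members, 71 further genes in 6 lists covered heme synthesis, heme transport, iron uptake, iron storage and export, iron sensing and iron-sulfur cluster assembly. All 71 were found and 63 passed the filter. Abcb6, Hpx, Tfr2, Ftmt, Hephl1, Hamp, Hamp2 and Fdx2 did not, because of low values. With limma, 1 of the 63 was called higher after MI in saline pups and 0 in NAC pups, against 0.854% and 0.127% of all genes. At an unadjusted 0.05, 10 and 7 of the 63 passed, against 11.4% (1710) and 10% (1499) of the 14996 genes. Averaged over both treatments 2 were called higher and 1 lower, where 2.13% of all genes were higher and 0.613% lower, and 18 of the 63 passed an unadjusted 0.05, against 20.2%. No gene of the lists was called for NAC against saline or for the interaction with limma; 7 passed an unadjusted 0.05 for NAC after MI (9.22% of all genes), 10 after sham (5.89%), 15 in the average (15.5%) and 0 in the interaction (2.03%).

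Hp, which encodes the hemoglobin scavenger haptoglobin, was the gene called in saline pups. It had 357, 87.2 and 337 counts in NAC MI, 345, 278 and 287 in saline MI, 37.4, 92.8 and 8.91 in NAC sham, and 7.25, 19.8 and 17.9 in saline sham. Its log2 fold change after MI was 4.36 in saline pups (SE 0.72, adjusted p = 0.0132 with limma) and 2.74 in NAC pups (adjusted p = 0.205), where NAC MI 2 lay just below NAC sham 2. In saline pups the call of Hp was lost without saline MI 1 (adjusted p = 0.0963 with limma), saline MI 2 (0.0613), saline MI 3 (0.0785) or saline sham 1 (0.0838). NAC MI 2, the lowest MI library in Hp, also had the lowest neutrophil and macrophage sums of the MI libraries (1009 and 1276). The part of any cell type in the rise of Hp was not tested. Flvcr2, listed with the heme transporters, had 72.3, 99.8 and 39.6 counts in NAC MI, 31.4, 40.1 and 40.9 in saline MI, 111, 44.7 and 110 in NAC sham, and 28.3, 32.7 and 32.1 in saline sham (log2 difference of NAC against saline after sham 1.37, adjusted p = 0.770 with limma). Its 3 highest libraries were also the 3 highest for Tfrc.

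In the list of iron uptake, Steap1 rose and its relative Steap4 fell after MI, averaged over both treatments. Steap1 had 24.4, 55.6 and 15.8 counts in NAC MI, 41.5, 11.9 and 13.6 in saline MI, 0, 2.63 and 1.78 in NAC sham, and 2.17, 3.97 and 3.57 in saline sham (averaged log2 fold change 3.0, adjusted p = 0.0132 with limma). Steap4 had 268, 162 and 154 counts in NAC MI, 151, 218 and 226 in saline MI, 381, 546 and 331 in NAC sham, and 325, 328 and 451 in saline sham (averaged log2 fold change -1.01, adjusted p = 0.0169 with limma). For both genes all MI libraries were on one side of all sham libraries, and the 3 NAC sham libraries held 5 reads of Steap1 in all. Within 1 treatment limma called neither: the adjusted p was 0.260 in saline pups and 0.0957 in NAC pups for Steap1, and 0.203 and 0.187 for Steap4. The averaged calls were lost without saline MI 1, with an adjusted p of 0.0605 for Steap1 and 0.0620 for Steap4.

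**Figure D5:**
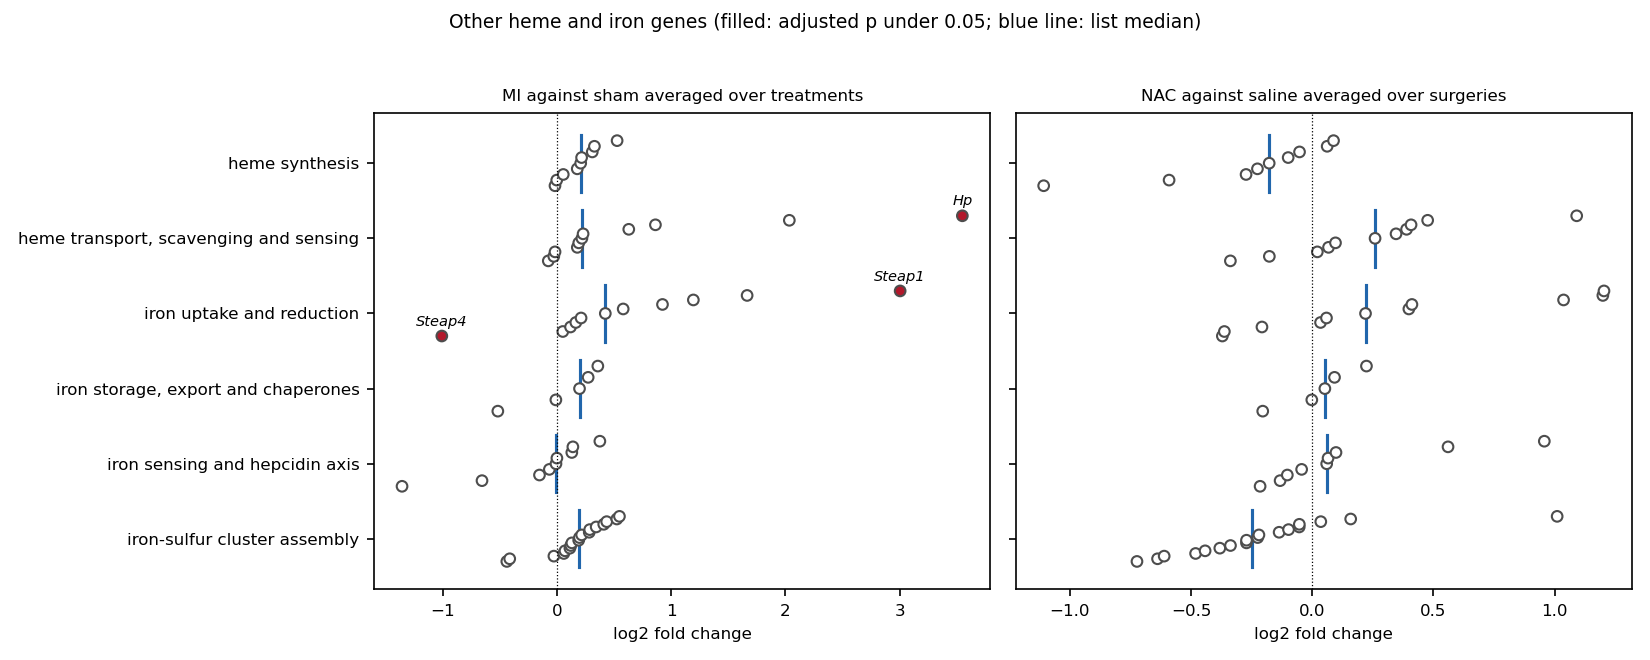
Log2 fold changes (x axes) of the 63 tested genes of 6 heme and iron lists (rows), for MI against sham averaged over treatments and NAC against saline averaged over surgeries; blue lines are list medians and filled points passed an adjusted p of 0.05 with limma. Hp and Steap1 are filled on the right and Steap4 on the left of 0 for MI, and no point is filled for NAC.

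Heme synthesis genes were mostly a little lower with NAC, with 7 of 9 lower and 2 higher in the average over surgeries, where 47.6% of all genes were higher. Their median log2 difference was -0.18, where that of all genes was -0.02, and none was called. Furthest below 0 was Alas2, the erythroid enzyme that starts heme synthesis and itself a marker of red cells. It averaged 10022 ± 5342 in NAC MI, 18904 ± 6310 in saline MI, 7594 ± 4595 in NAC sham and 16787 ± 6144 in saline sham (averaged log2 difference -1.11, adjusted p = 0.198 with limma). The red cell marker sum, which includes Alas2, was lower in the NAC libraries as given above, and its part in the difference was not tested. Cpox, a late enzyme of the same pathway, had a log2 fold change of 0.71 for MI against sham in saline pups (adjusted p = 0.160 with limma).

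Iron-sulfur cluster genes were lower with NAC in 15 of 18 and higher in 3, where 47.6% of all genes were higher. Their median averaged log2 difference was -0.25, where that of all genes was -0.02, and none was called. Glrx5, a glutaredoxin of the mitochondrial assembly line, averaged 1289 ± 74.6 in NAC MI, 1954 ± 261 in saline MI, 939 ± 218 in NAC sham and 1537 ± 524 in saline sham (averaged log2 difference -0.64, adjusted p = 0.189 with limma).

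In the lists of storage and sensing, the ferroxidase gene Heph had an averaged log2 fold change of -0.52 for MI against sham (adjusted p = 0.0697 with limma). Ncoa4, the receptor that delivers ferritin to lysosomes, had one of 0.27 (adjusted p = 0.325). Epas1, which encodes HIF-2α and carries an iron-responsive element match before its coding part with 1 base skipped, had an averaged log2 fold change of -0.65 for MI against sham (adjusted p = 0.104 with limma). Bmpr1a, a receptor of the signal that controls hepcidin in liver, averaged 2032 ± 674 in NAC MI, 1059 ± 276 in saline MI, 2217 ± 792 in NAC sham and 1065 ± 159 in saline sham, with every NAC library above every saline library of the same surgery. Its averaged log2 difference was 0.96 (unadjusted p = 6.8e-04, adjusted p = 0.172 with limma).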

How the data were processed

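RNA was extracted with Trizol and sequenced after poly-A enrichment, per the labels' protocols. The authors deposited normalized signal values, gene read counts divided by 1 size factor per library. Multiplied by that factor, 100% of values came within 0.01 of whole reads, and the factors recomputed by the median of ratios equalled those deposited. STAR 2.7.10a and the mm10 build are listed in the submitters' processing notes, as is DESeq2 1.44.0. The gene counter, annotation and strand setting are not given in the sources used here, so reads of overlapping antisense genes cannot be told apart. GENCODE M21 matched 52079 of 52336 identifiers, and 21590 genes were at 0 in every library.

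Values were tested as log2(value + 1) with limma 3.58.1 in R 4.3.3 (trended prior variance, 4 group means over 12 libraries, 8 residual degrees of freedom, two-sided, Benjamini-Hochberg over 14996 genes), and the code was checked on simulated data. Fold changes on this scale understate those of low genes. For single values in groups of 3, the smallest exact two-sided permutation p is 0.1. Replicates are numbered in accession order. Of the 71 list genes, those called and the 2 with the smallest p in each list were named, except 1 that is not reported here. Members and lists were chosen with earlier results of these data known. Alternatives were pseudocounts of 0.5 and 8, no filter or a mean of at least 50, TMM factors, size factors without mitochondrial and globin genes, edgeR 4.0.16, DESeq2 1.42.0, library quality weights, only the libraries of a comparison, leaving out each library, leaving out NAC sham 2 and NAC MI 2 together, and the title prefix as a block.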

Additional observations from a re-analysis of the deposited data

How the results depend on the processing

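Over 79 fold changes of named genes, 1809 alternative values were computed: 1691 kept direction and side of the threshold, 73 gained the threshold, 10 lost it and 35 changed sign. Members called with library quality weights were 7 for MI against sham after saline, 2 after NAC and 7 averaged, and 2 for NAC against saline after MI, 1 after sham and 3 averaged. With only the libraries of a comparison they were 2 for MI after saline and 0 after NAC. Without NAC sham 2 and NAC MI 2 together they were 2 for MI after saline, 2 after NAC and 3 averaged, and 1 for NAC after sham and 1 averaged. DESeq2 called 1 for NAC after sham and 2 averaged. Leaving out 1 library gave 1 to 1 for MI after saline, 0 to 1 after NAC and 1 to 3 averaged, 0 to 1 for NAC after sham, 0 to 0 after MI and 0 to 1 averaged, and 0 to 0 for the interaction. Without NAC sham 2, Tfrc gained its call after sham and in the average and Hmox1 in averaged MI; without saline sham 3, averaged MI gained Ireb2 and Blvrb.

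Signs turned as follows, none past the threshold, and the cause was not tested. Quality weights gave -0.51 for Hmox1 (NAC after sham), 0.078 for Hmox2 and -0.018 for Tfrc (both MI after saline) and 0.017 for Slc40a1 (NAC after MI). Without NAC sham 2 and NAC MI 2, Hmox1 was -0.73 and Ftl1 -0.33 for NAC after sham, and Hmox2 was 0.025, Trf 0.074, Slc40a1 0.21 and Slc11a2 -0.011 for NAC after MI. The prefix block gave 0.040 for Hmox2 and -0.0050 for Slc11a2, and TMM factors 0.012 for Fth1 (NAC after sham). Leaving out 1 library, the log2 values ranged, for MI after saline, from -0.32 to 0.24 in Hmox2 and -0.15 to 0.41 in Tfrc. For MI after NAC they ranged from -0.15 to 1.70 in Hmox1, -0.0062 to 0.25 in Hmox2, -0.030 to 0.60 in Fth1, -0.84 to 0.088 in Tfrc and -0.25 to 0.52 in Slc40a1. For NAC after sham they ranged from -0.73 to 1.12 in Hmox1, -0.54 to 0.013 in Hmox2, -0.38 to 0.45 in Fth1 and -0.33 to 0.28 in Ftl1. For NAC after MI they ranged from -0.23 to 0.025 in Hmox2, -0.19 to 0.074 in Trf, -0.57 to 0.21 in Slc40a1 and -0.011 to 0.28 in Slc11a2. No paired analysis was possible because replicate numbers follow accession order and pair no samples. The block on the title prefix covered only NAC against saline in the 6 MI libraries. The smallest number of reads behind a member in any library was 82, for Slc40a1.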
